A study of Mus musculus with 6 samples.

Results

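The genes described here are 9 neighbours on mouse chromosome 7: *Sult2b1*, *Ccdc114*, *Rasip1*, *Emp3*, *Tmem143*, *Fut1*, *Lmtk3*, *Cyth2* and *Kcnj14*. They are 9 of the 47062 genes in the deposited table, found by symbol through their Ensembl identifiers, and all start between 45 and 46 Mb on GRCm38. They were proposed for their place around *Sult2b1* and chosen by their FPKM and count values in the mutant and control libraries, so their differences between the groups are given as a description, with no test. Total RNA was sequenced from striatum that had been dissected with its subventricular zone on postnatal day 0. The 3 control libraries came from Sp9Flox/Flox littermates without Cre, and the 3 mutant libraries from Drd2-Cre;Sp9Flox/Flox animals, in which the recombinase is driven by control elements of *Drd2*, the D2 dopamine receptor gene. Both groups thus carry the floxed alleles of *Sp9*, a zinc finger transcription factor gene, and both have mixed descent from the C57BL/6J, 129S6 and CD1 strains. There was no group with Drd2-Cre alone, so effects of the Cre transgene and of the deletion cannot be told apart. The labels do not say whether a library held 1 animal or several, so the spread given is that between libraries.

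*Sult2b1* encodes a cytosolic sulfotransferase, an enzyme that moves a sulfate group onto cholesterol and related steroids, and alternative first exons give it proteins with different amino termini. *Ccdc114* encodes a docking protein of the outer dynein arms of motile cilia. *Rasip1* encodes an effector of the small GTPase Rap1 that is known from endothelial cells, where it is needed for vessels to form a lumen. The other 6 genes have unrelated roles, so what the 9 share is their place on the chromosome.

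Among the 9 genes, *Sult2b1* had the widest gap between the groups. Its level was 6.25-fold higher in the mutants, and *Ccdc114* was 2.44-fold and *Rasip1* 1.55-fold higher, as ratios of mean FPKM (fragments per kilobase of transcript, relative to all mapped fragments of the library). *Kcnj14* was lower, with a control mean 1.77-fold above the mutant mean. In these 4 genes the 3 mutant libraries lay outside the range of the 3 controls, as they did in 11.4% of the 16666 genes tested, and since the 9 were chosen by these values nothing is read from that count. The groups overlapped in the other 5, and *Lmtk3* and *Cyth2*, the 2 most abundant genes and the nearest to *Sult2b1* on one side, had almost equal means in both groups.

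The starts of these genes were read from RefSeq on GRCm38.p6, as the 250 bases before each annotated start. Members of the Sp family, to which Sp9 belongs, are known to bind GC-rich boxes, so the windows of *Sult2b1* and *Ccdc114*, where the values differed most, are shown with the letters GGGCGG or their complement CCGCCC in capitals. The window of *Lmtk3*, whose mean level was almost equal in the groups, stands beside them for comparison. *Sult2b1* has 2 windows, both on the minus strand. The first lies at chr7:45759613-45759862 in an intron of the longest transcript. The second, at chr7:45742479-45742728, overlaps a noncoding *Sult2b1* transcript, the first bases of coding *Sult2b1* transcripts and the antisense gene *Gm31597*. For *Ccdc114*, on the plus strand, the 107 bases at chr7:45923965-45924071 are printed, which end where its first transcript begins. The *Lmtk3* window, also on the plus strand, lies at chr7:45785097-45785346 in an intron of longer *Lmtk3* transcripts. It also lies upstream of the longest *Sult2b1* transcript, which runs the other way.
Sult2b1, first window: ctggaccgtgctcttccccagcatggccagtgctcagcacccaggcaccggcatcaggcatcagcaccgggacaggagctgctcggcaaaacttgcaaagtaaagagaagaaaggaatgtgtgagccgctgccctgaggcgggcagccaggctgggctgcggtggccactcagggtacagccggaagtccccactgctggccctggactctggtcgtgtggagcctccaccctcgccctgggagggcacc
Sult2b1, second window: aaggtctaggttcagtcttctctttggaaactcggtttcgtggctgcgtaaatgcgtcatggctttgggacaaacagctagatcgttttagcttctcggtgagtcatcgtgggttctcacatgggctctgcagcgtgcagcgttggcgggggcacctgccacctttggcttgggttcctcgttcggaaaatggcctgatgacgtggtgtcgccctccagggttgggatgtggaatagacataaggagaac
Ccdc114: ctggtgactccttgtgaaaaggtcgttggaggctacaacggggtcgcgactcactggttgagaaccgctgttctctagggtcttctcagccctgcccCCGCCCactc
Lmtk3: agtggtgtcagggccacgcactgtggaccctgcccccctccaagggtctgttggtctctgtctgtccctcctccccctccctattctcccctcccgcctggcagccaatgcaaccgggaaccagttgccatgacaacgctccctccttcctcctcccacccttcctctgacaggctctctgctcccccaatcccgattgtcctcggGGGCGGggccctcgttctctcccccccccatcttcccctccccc
Neither *Sult2b1* window held GGGCGG on either strand. No window was taken directly before the start of its longest transcript (45784669, minus strand), so the motif was not searched in that stretch. The *Lmtk3* window shown lies further upstream of the same start and was searched. The full 250-base window of *Ccdc114* held 2 matches, which begin 153 and 53 bases before the start, and the printed part shows the first of them. The *Lmtk3* window shown held 1 match, 44 bases before the start, while the window at its other start, inside *Sult2b1* exons, held none. RefSeq windows were found for 7 of the 9 genes (10 in all), but not for *Kcnj14* or *Tmem143*. Of the 10 windows, 4 had at least 1 match, 1 each of *Ccdc114*, *Fut1*, *Cyth2* and *Lmtk3*. Over all 32851 windows of this length, 32.7% held the motif. The GT box CACCC, searched on both strands and counted without regard to overlap with the first motif, was in 6 of the 10 windows and in 52.0% of all. It occurred 2 times in the first window of *Sult2b1*, 1 time in that of *Rasip1* and not in that of *Ccdc114*. Genes with and without a difference between the groups thus had matches, and a match is only a description of the letters.

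Before the values of the 9 genes, a few facts of the series bear on them. *Sp9* (ENSMUSG00000068859) measured 20.1, 19.0 and 17.3 FPKM in controls against 8.37, 7.93 and 9.67 in mutants, in the direction of the labels. The deposited counts are not whole numbers, and 97.7 to 97.9% of them per library lie within 0.1 of a whole multiple of 1 step. They are called scaled counts here, and dividing by the step gave estimated fragments, 16237067 to 19457784 per library. No source used here states that relation and it was not checked against reads, so all fragment numbers below are estimates. All 16 genes of the list of striatal neurons were measured, with summed levels of 2036 to 2131 FPKM (control) and 1849 to 1973 FPKM (mutant), which did not overlap. Of these 16, 1 was higher and 6 were lower with FPKM groups that do not overlap, beside 5.33% and 6.05% of all tested genes. With limma, 1 passed an adjusted p of 0.05 over all genes (*Adora2a*, lower), and 2 passed with limma on scaled counts. By *Xist* and 4 genes of the Y chromosome, control replicate 3 was the only male library.

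*Sult2b1* (ENSMUSG00000003271; GRCm38 chromosome 7, 45729983 to 45784669, minus strand) measured 0.402, 0.731 and 0.493 FPKM in controls 1 to 3, against 2.99, 3.13 and 4.04 in mutants 1 to 3. The lowest mutant library was thus well above the highest control. Group means were 0.542 ± 0.170 and 3.39 ± 0.569 (SD, n = 3 each). The difference in log2(FPKM + 0.5), a scale that understates changes of low genes, was 1.90. In the controls the gene sat near the detection limit, above only 3.35% of the 16666 genes that average 0.5 FPKM or more, whereas in the mutants it was above 30.5% of them. The values rest on few fragments, an estimated 2, 8 and 8 in the controls and 35, 42 and 35 in the mutants. The total was 18 fragments in the controls against 112 in the mutants. In bulk tissue, more cells that use the gene and more of its RNA per cell cannot be told apart.

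The annotation of *Sult2b1* limits how its fragments can be read. GENCODE M21 lists 8 transcripts of it, 4 of them coding, with spliced lengths of 422 to 1858 bases. The longest starts at 45784669, head to head with *Lmtk3*, and the 2 genes share 932 bases of span and 243 bases of exon on opposite strands. Since the use of strand in counting is not given in the sources used here, fragments of *Lmtk3* in that stretch could have been counted for *Sult2b1*. *Lmtk3* itself held 7660 to 10596 fragments per library, and its mean differed by less than its spread between libraries. The antisense gene *Gm31597* overlaps *Sult2b1* as well, with 78 bases of shared exon, and is not analysed here.

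The FPKM that a given number of *Sult2b1* fragments produced was not constant. Per 100 scaled counts it was 19.1, 8.85 and 5.39 in the controls and 8.75, 7.70 and 10.02 in the mutants. An FPKM of a gene is summed over its transcripts, each divided by its own length, so this ratio moves with the transcripts to which the fragments were assigned. Control replicate 1 had the highest ratio of the 6 and only 2 fragments. On scaled counts *Sult2b1* averaged 6.50 ± 3.83 against 38.4 ± 3.68 (control and mutant; SD, n = 3 each), a 5.91-fold ratio, so both columns gave the same direction and groups that do not overlap.

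*Ccdc114* (ENSMUSG00000040189; chromosome 7, 45924072 to 45948963, plus strand), whose start lies 139 kb from that of *Sult2b1*, measured 0.287, 0.225 and 0.212 FPKM in controls against 0.465, 0.620 and 0.682 in mutants. Every mutant library was above every control. The means were 0.241 ± 0.0402 and 0.589 ± 0.112 (SD, n = 3 each), with a difference of 0.55 in log2(FPKM + 0.5). The mean over all libraries lay under 0.5, so *Ccdc114* was not among the genes fitted. It held 8, 8 and 6 fragments in the controls and 22, 30 and 28 in the mutants. On scaled counts the ratio was 3.52, larger than the 2.44 on FPKM. The FPKM per 100 scaled counts was 3.41, 2.73 and 3.09 in the controls and 2.16, 2.13 and 2.11 in the mutants, with groups that do not overlap, over 7 annotated transcripts. An antisense gene, *Gm45442*, shares 103 bases of exon with it.

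**Figure D1:**
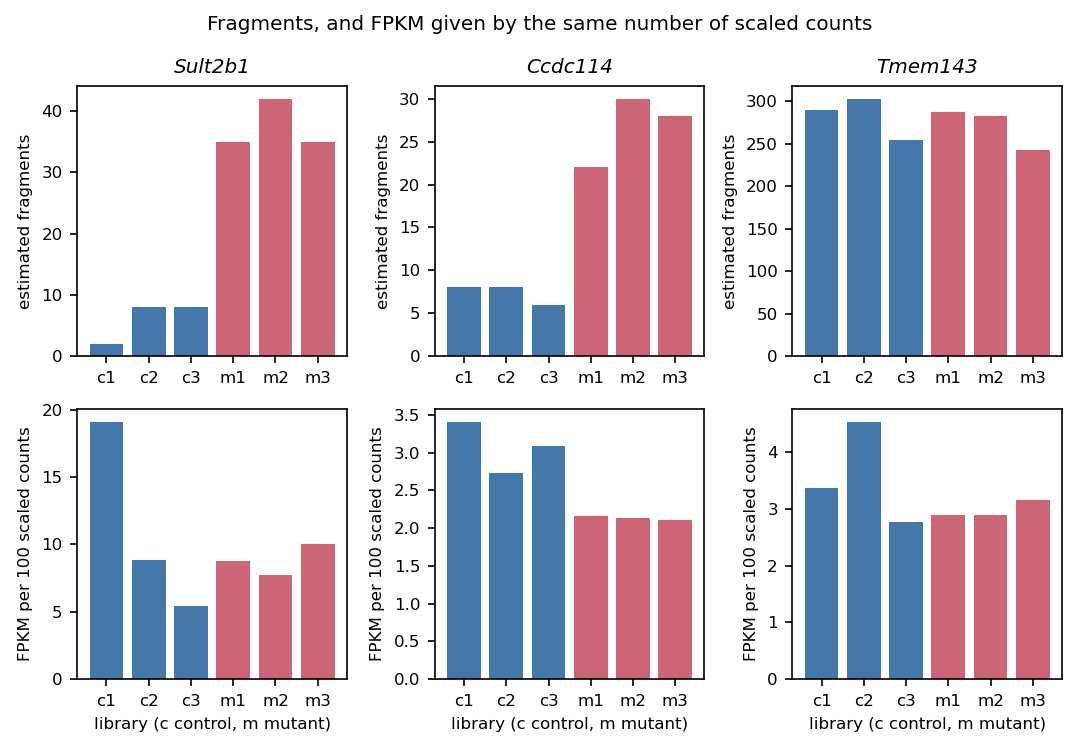
The upper bars give the estimated fragments and the lower bars the FPKM per 100 scaled counts of *Sult2b1*, *Ccdc114* and *Tmem143* in the 3 control (c1 to c3, blue) and 3 mutant (m1 to m3, red) libraries. *Sult2b1* goes from 2 to 8 fragments in the controls to 35 to 42 in the mutants, while the lower bars show that FPKM and fragments are not proportional in these 3 genes.

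*Rasip1* (ENSMUSG00000044562; chromosome 7, 45627488 to 45639093, plus strand) lies 157 kb from the *Sult2b1* start on the other side. Its FPKM was 2.64, 2.38 and 2.90 in the controls and 4.10, 4.30 and 3.89 in the mutants. The mutant libraries were again all higher, and the spread within each group was small beside the gap. The means were 2.64 ± 0.263 and 4.10 ± 0.208 (SD, n = 3 each), a difference of 0.55 in log2(FPKM + 0.5), and the ratio was 1.53 on scaled counts. With 414 fragments in the controls and 666 in the mutants, it rests on more fragments than *Sult2b1* or *Ccdc114*. It has 1 annotated transcript, and 20.4% of its exon bases are shared with *Izumo1*, a sperm gene on the same strand that was near 0 here (up to 0.0767 FPKM). Antisense genes cover other parts, 15.6% of the exon bases for *A030001D20Rik* and 6.93% for *Gm45437*.

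*Kcnj14* (ENSMUSG00000058743; chromosome 7, 45816460 to 45824782, minus strand) encodes a subunit of inward rectifier potassium channels, which hold the membrane near its resting potential. Its FPKM was 0.467, 0.416 and 0.393 in the controls and 0.238, 0.157 and 0.326 in the mutants. All mutant libraries were lower, but mutant replicate 3 came close to the lowest control. On average this was 0.425 ± 0.0378 and 0.240 ± 0.0845 (SD, n = 3 each). It held 22, 20 and 17 fragments in the controls and 12, 8 and 14 in the mutants. Like *Ccdc114* it was too low for the fit.

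*Tmem143* (ENSMUSG00000002781; chromosome 7, 45896941 to 45917413, plus strand), a gene for a predicted membrane protein, measured 10.3, 14.2 and 8.03 FPKM in controls against 8.12, 7.95 and 8.84 in mutants. The groups overlapped, and the control spread came mostly from replicate 2. The means were 10.8 ± 3.12 and 8.30 ± 0.473 (SD, n = 3 each). Its scaled counts looked different: 305, 313 and 290 in the controls and 280, 274 and 280 in the mutants, with groups that do not overlap and a change in mean of -8.10%. The coefficient of variation among controls was 28.8% in FPKM and 3.83% in scaled counts. The FPKM per 100 scaled counts ran from 2.77 to 4.54 among the controls, over 10 annotated transcripts.

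*Emp3* (ENSMUSG00000040212; chromosome 7, 45918023 to 45921404, minus strand), a small membrane protein gene of the *Pmp22* family, measured 1.35, 1.51 and 0.792 FPKM in controls against 1.53, 1.35 and 1.83 in mutants. The groups overlapped and only control replicate 3 stood below the rest, with 7 fragments against 13 to 16 elsewhere. The means were 1.22 ± 0.379 and 1.57 ± 0.241 (SD, n = 3 each). *Emp3* lies between *Tmem143*, 609 bases away, and *Ccdc114*, 2667 bases away, and overlaps neither.

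*Lmtk3* (ENSMUSG00000062044; chromosome 7, 45783738 to 45804144, plus strand) encodes a lemur tail kinase found in neurons and was the most abundant of the 9. Its FPKM was 132, 113 and 122 in the controls and 132, 117 and 113 in the mutants, the same range in both groups. The means were 122 ± 9.53 and 121 ± 10.04 (SD, n = 3 each). *Cyth2* (ENSMUSG00000003269; chromosome 7, 45806637 to 45814581, minus strand) encodes cytohesin 2, an exchange factor that activates Arf GTPases at membranes. Its FPKM was 70.8, 77.5 and 71.0 in controls against 73.2, 73.0 and 75.5 in mutants. The mutant libraries all lay within the control range, and their averages were 73.1 ± 3.79 and 73.9 ± 1.41 (SD, n = 3 each).

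*Fut1* (ENSMUSG00000008461; chromosome 7, 45617289 to 45621059, plus strand), a fucosyltransferase gene that makes the H antigen, was at the limit of detection. It was listed at 0 in control replicate 1 and measured 0.0422 and 0.0233 FPKM in the other controls, against 0.0401, 0.0201 and 0.0471 in mutants. These values stand for 0 to 2 fragments a library, so a difference was not detectable at this depth and no fold is given.

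**Figure D2:**
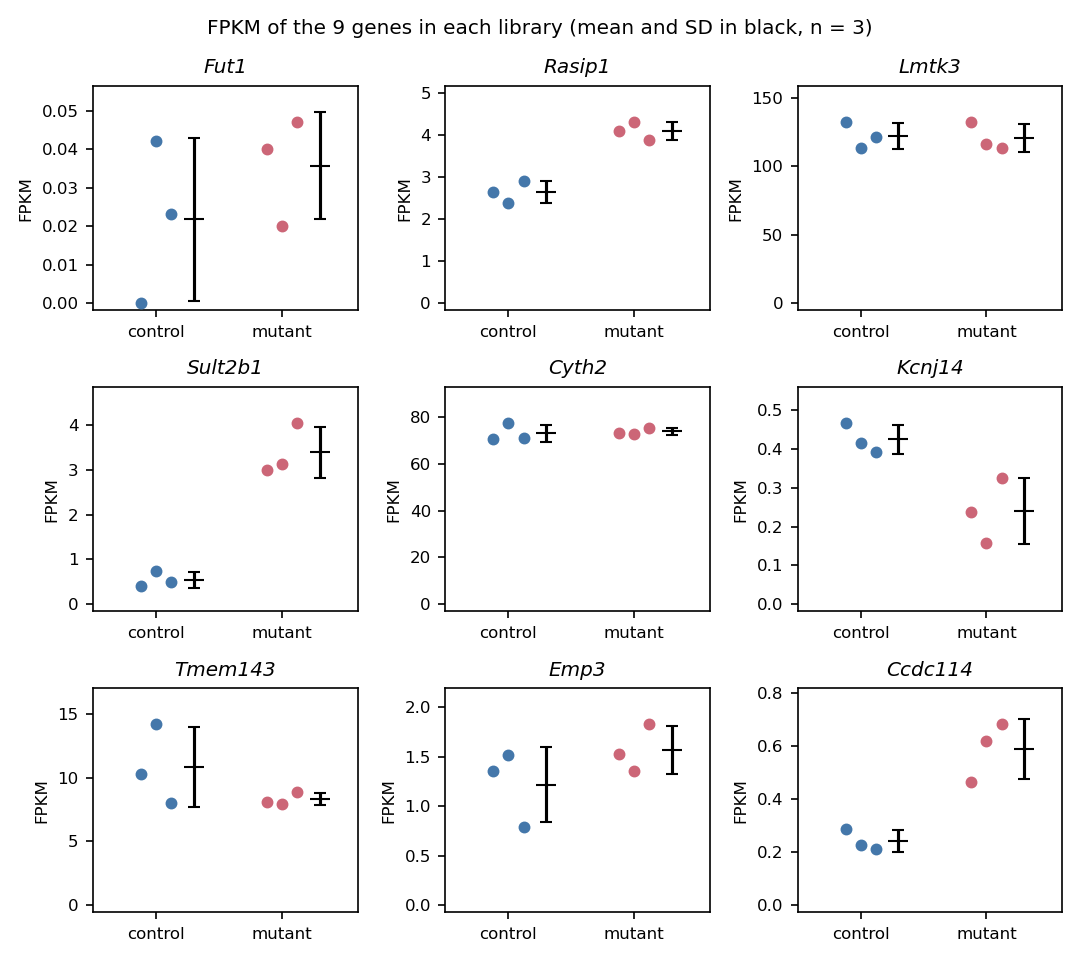
Each panel shows the FPKM of 1 gene, in order along the chromosome, with 1 point per control (blue) and mutant (red) library and the mean with its SD (n = 3) in black. Mutant points lie above all control points for *Rasip1*, *Sult2b1* and *Ccdc114*, below them for *Kcnj14*, and overlap with them in the other panels.

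The order of the 9 genes by mean FPKM, a scale per transcript length, was nearly the same in the 2 groups. In the controls it ran *Lmtk3*, *Cyth2*, *Tmem143*, *Rasip1*, *Emp3*, *Sult2b1*, *Kcnj14*, *Ccdc114* and *Fut1*. Only *Sult2b1* and *Kcnj14* overlapped in range among neighbours in that order (0.402 to 0.731 and 0.393 to 0.467). In the mutants *Sult2b1* took the fifth place instead of the sixth and *Ccdc114* the seventh instead of the eighth. There *Sult2b1* (2.99 to 4.04) overlapped with *Rasip1* (3.89 to 4.30) and no other neighbours in the order overlapped. *Lmtk3* and *Cyth2* exceeded 94.8% and 91.3% of the tested genes in the mutants, so the region holds genes from the top of the range down to the detection limit.

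Over all 9 genes, 3 were higher and 1 was lower in the mutants with FPKM groups that do not overlap. Of the 16666 genes tested, 11.4% had groups that do not overlap, with 5.33% higher and 6.05% lower. Among the 20979 genes with a mean FPKM above 0.1, which takes in *Ccdc114* and *Kcnj14*, the share was 11.2% (5.32% higher, 5.84% lower). On the filter of 0.5, 6 of the 9 passed (all but *Ccdc114*, *Kcnj14* and *Fut1*). The median difference over the 9 was 0.04 in log2(FPKM + 0.5), which is the value of *Fut1*, against a median of -0.0002 over all tested genes. On scaled counts 3 were higher and 2 lower, the added gene being *Tmem143*, beside 12% of the 16125 genes averaging 10 or more scaled counts (5.46% higher, 6.49% lower).

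The other genes of the interval were examined to see how far the differences reach. The table holds 72 further genes that start between 45 and 46 Mb, and 40 of them passed the filter. None passed an adjusted p of 0.05 over all genes with limma, robust limma, limma on scaled counts or limma with a replicate block. Unadjusted p-values under 0.05 numbered 3 with limma, 4 with robust limma, 3 on scaled counts and 3 with the block. Over all genes, 0.06% passed the adjusted and 5.65% the unadjusted threshold. Groups did not overlap in 7 of the 40 in FPKM (17.5%, against 11.4% over all genes), 2 higher and 5 lower, and the median difference was 0.02. The split by direction depended on the scale and on single libraries. It was 3 higher and 3 lower of 37 on scaled counts, beside 12% of all genes in either direction. Leaving out a library raised the share over all genes as well. The split was 8 and 9 of 39 without control replicate 2 (24.9% of all genes) and 8 and 8 of 39 without mutant replicate 3 (22.5%). Without mutant replicate 2 it was 6 and 5 of 38 (19.8%). These neighbours are what remained of the interval after the 9 had been chosen, so their share is a description as well.

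Of the 7, the ones with established names were all modest in size. *Prrg2*, a gene for a vitamin K dependent membrane protein, had a log2 difference of 0.27 ± 0.12 (SE), and *Trpm4*, a calcium-activated cation channel gene, 0.18 ± 0.094. *Ppp1r15a*, a regulatory subunit that directs dephosphorylation of the initiation factor eIF2 alpha, had an FPKM of 5.32 ± 0.481 and 4.20 ± 0.238 (SD, n = 3 each; log2 difference -0.31, adjusted p = 0.795, limma). *Nucb1*, a calcium-binding Golgi protein gene, had 27.8 ± 0.788 and 24.5 ± 0.325 (log2 difference -0.18, adjusted p = 0.627, limma). *Ftl1*, the ferritin light chain gene, and *Ruvbl2*, an ATPase gene of chromatin complexes, differed by -0.07 and -0.09. On scaled counts the groups of *Nucb1* and *Ftl1* overlapped. The remaining one, *Rpl14-ps1*, is a ribosomal protein pseudogene with a log2 difference of -0.23. The difference furthest from 0 among the 40 neighbours in FPKM, other than small noncoding RNAs, was that of *Slc17a7*, a vesicular glutamate transporter gene named here after its values were seen. Its FPKM was 0.181, 0.311 and 0.197 in controls and 1.01, 0.295 and 1.19 in mutants, so the groups overlapped through mutant replicate 2 (log2 difference 0.80, adjusted p = 0.858, limma).

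Between *Fut1* and *Ccdc114*, the outermost of the 9, lie 8 further tested genes. These (*Mamstr*, *Car11*, *Dbp*, *Sphk2*, *Rpl18*, *Grwd1*, *Grin2d* and *Kdelr1*) all had groups that overlap in FPKM, with log2 differences from -0.21 (*Car11*) to 0.12 (*Grin2d*). *Grwd1*, a ribosome assembly factor gene 440 bases from *Kcnj14*, had an FPKM of 12.7 ± 0.845 and 11.8 ± 0.456 (SD, n = 3 each; log2 difference -0.10, 95% interval -0.27 to 0.07, limma). *Kdelr1*, which encodes a retrieval receptor of the endoplasmic reticulum, had a difference of 0.04 with an interval of -0.04 to 0.12. *Mamstr*, 883 bases beyond *Rasip1*, averaged 0.530 FPKM (control) and 0.516 FPKM (mutant). On scaled counts, however, its groups did not overlap, with the mutants higher by 0.32 on the log2 scale, the direction of *Rasip1*. *Spaca4*, *Syngr4*, *Izumo1* and *Fgf21*, the other nearest coding genes, were listed at 0 or near 0 in all libraries, and *Abcc6*, the next after *Ccdc114*, had 0.367 ± 0.150 and 0.237 ± 0.0980. In the adjoining 1 Mb on each side, groups did not overlap in 1 of 31 tested genes (44 to 45 Mb) and 2 of 15 (46 to 47 Mb), with none past the adjusted threshold with limma and 1 and 2 at an unadjusted p under 0.05.

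**Figure D3:**
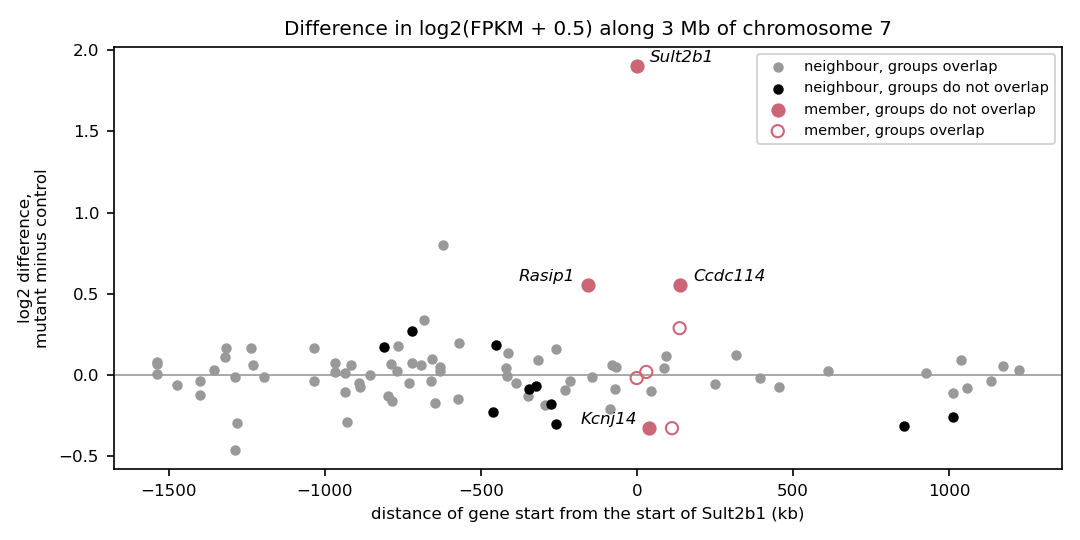
The difference in log2(FPKM + 0.5), mutant minus control, of tested genes (small noncoding RNAs left out) and of 8 of the 9 genes (red; *Fut1* left out for its few fragments) is plotted against the distance of their start from that of *Sult2b1* in kb. Black and filled red points have groups that do not overlap. *Sult2b1* stands at 1.90, *Rasip1* and *Ccdc114* at 0.55 on either side, and the tested genes between them that are not among the 9 lie from -0.21 to 0.12, while *Kcnj14*, *Tmem143* and *Emp3* lie from -0.33 to 0.29.

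Relatives of the 9 genes by family or pathway were counted by list. Over 86 tested relatives that are not among the 9, none passed an adjusted p of 0.05 over all genes with limma, robust limma, limma on scaled counts or with the replicate block. At an unadjusted p under 0.05, 2 were higher and 4 lower with limma, and groups did not overlap in 4 higher and 5 lower relatives (10.5%, against 11.4% over all genes). Their median difference was -0.003.

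Among sulfotransferases and the enzymes that make their sulfate donor, 5 of 13 relatives of *Sult2b1* were tested and none had groups that do not overlap. *Sult4a1*, a brain form, averaged 57.3 ± 1.25 FPKM in controls and 58.2 ± 3.23 in mutants, and *Papss1*, a synthase of the sulfate donor, had 32.9 ± 2.09 and 35.5 ± 1.84 (SD, n = 3 each). Another 7, among them *Sult2a1* and *Sult1e1*, were listed at 0 in every library. Of 14 tested cholesterol and oxysterol genes, the groups of 3 did not overlap, all lower (6.05% of all tested genes were lower in this way). Among the 3, *Dhcr7*, a reductase gene, and *Srebf2*, a transcription factor gene of this pathway, had log2 differences of -0.14 and -0.09. Both were short of the adjusted threshold (adjusted p = 0.858 each, limma). On scaled counts the groups of *Dhcr7* overlapped, with a log2 difference of -0.07, and those of *Srebf2* did not. The groups of *Nr1h2* did not overlap on scaled counts only, with the mutants higher.

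The motile cilia list had 7 tested relatives of *Ccdc114*, and none had groups that do not overlap. *Dnal1*, a dynein light chain gene, had an FPKM of 23.5 ± 0.654 and 22.2 ± 1.63, and *Ccdc151*, whose product docks dynein arms together with that of *Ccdc114*, had 1.58 ± 0.192 and 1.19 ± 0.174 (SD, n = 3 each). The regulator of ciliated cells *Foxj1* had 0.641 ± 0.154 and 0.661 ± 0.174. The ependyma list, cells that carry motile cilia, summed to 3.63 to 5.37 FPKM in the controls and 3.99 to 5.23 in the mutants. It had 2 of 6 genes tested, none with groups that do not overlap, and *Tmem212* listed at 0. The summed level overlapped between the groups.

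All 19 partners and endothelial relatives of *Rasip1* were tested. Groups did not overlap in 1 higher (*Sox18*, log2 difference 0.16) and 2 lower genes. *Heg1*, a receptor at endothelial junctions, had an FPKM of 11.7 ± 1.02 and 8.25 ± 2.03 (SD, n = 3 each; log2 difference -0.50, adjusted p = 0.847, limma), and *Emcn* had a log2 difference of -0.28. The groups of *Emcn* overlapped on scaled counts, while those of *Sox18* and *Heg1* did not. The groups of *Tek* did not overlap on scaled counts only, with the mutants lower. The 10 endothelial markers summed to 56.5 to 68.5 FPKM in the controls and 61.4 to 67.0 in the mutants, a range within that of the controls, with no marker at 0. *Cldn5*, the tight junction gene of brain vessels, had 22.4 ± 2.32 and 24.5 ± 0.721. 

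In the small family of *Emp3*, *Pmp22*, a myelin protein gene, averaged 2.93 ± 0.204 FPKM in controls and 4.71 ± 0.386 in mutants (SD, n = 3 each). Its log2 difference was 0.60 ± 0.098 (SE), with groups that do not overlap and an adjusted p of 0.369 (limma). *Emp1* and *Emp2* had log2 differences of -0.27 and -0.14 with groups that overlap. None of the 9 tested relatives of *Fut1* had FPKM groups that do not overlap, and *Fut9*, the most abundant of them, had 20.2 ± 3.08 and 21.1 ± 2.57. On scaled counts the groups of *Slc35c1* did not overlap, with the mutants higher. The other lemur tail kinase genes, *Aatk* and *Lmtk2*, both had log2 differences of -0.02, like that of *Lmtk3*. Of 18 relatives of *Cyth2*, only *Arf6*, the GTPase gene that cytohesins act on at the cell surface, had groups that do not overlap (19.2 ± 0.601 and 20.3 ± 0.161; log2 difference 0.08). Among 9 tested inward rectifier genes, *Kcnj3* alone had such groups, at 0.670 ± 0.240 and 1.146 ± 0.126 (log2 difference 0.51, adjusted p = 0.858, limma), in the opposite direction to *Kcnj14*.

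**Figure D4:**
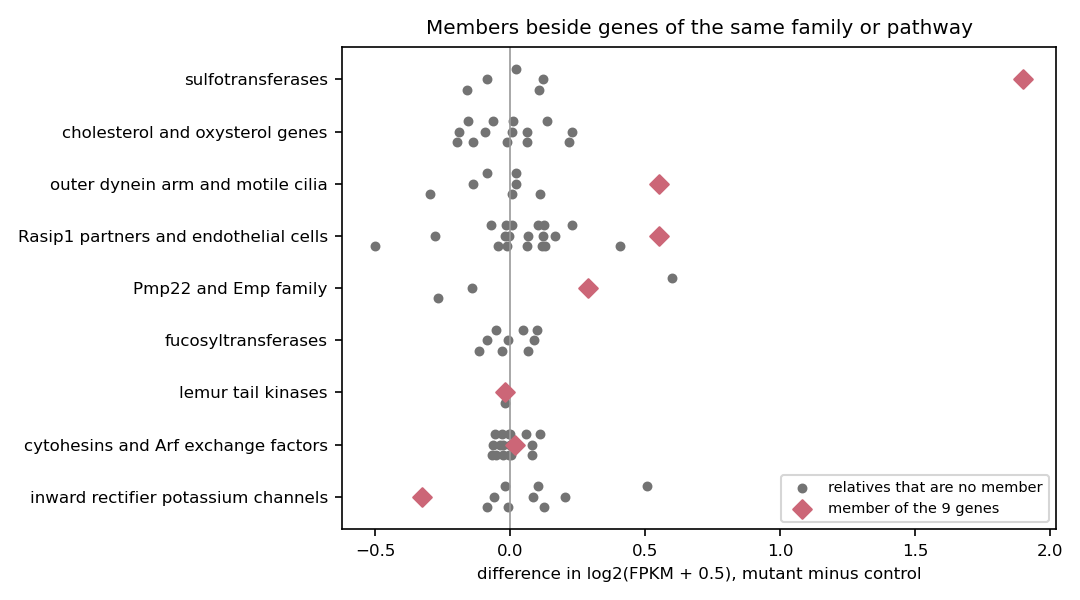
Each grey point is a tested relative that is not among the 9 genes, in the row of its list. Points are placed by their difference in log2(FPKM + 0.5), mutant minus control. Red diamonds are the genes of this region (*Fut1* and *Tmem143* are not drawn). Relatives lie between -0.50 and 0.60, and the diamond of *Sult2b1* at 1.90 lies beyond all of them.

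Markers of other cells that a dissection could hold were also checked. Of 6 keratinocyte markers, cells in which *Sult2b1* is known to be abundant, *Krt5* and *Krt14* were listed at 0 in every library, and the sum was 7.09 to 7.28 FPKM in the controls and 6.94 to 7.15 in the mutants. Choroid plexus markers summed to 1.40 to 2.28 and 2.42 to 2.53, and did not overlap. *Ttr* had 0.392 ± 0.412 and 1.35 ± 0.276 FPKM (SD, n = 3 each; adjusted p = 0.795, limma), with *Folr1* at 0 and 2 of the 6 genes tested. The other tested marker, *Clic6*, had 0.845 ± 0.266 and 0.559 ± 0.202 with groups that overlap (log2 difference -0.34). Meningeal fibroblast markers, 5 of 8 tested, summed to 14.2 to 18.0 and 17.5 to 22.5, with 1 gene (*Col3a1*, higher) whose groups did not overlap. On scaled counts the groups of *Col1a2* did not overlap either, with the mutants higher. The 8 microglial markers summed to 35.5 to 39.8 and 37.9 to 43.6, with 2 higher in groups that do not overlap (*Cx3cr1* and *C1qa*). Of all tested genes, 5.33% were higher in this way. On scaled counts the groups of *Cx3cr1* overlapped and those of *C1qa* did not. The 5 red blood cell genes summed to 403 to 647 and 541 to 958. No gene of these lists passed the adjusted threshold with limma, robust limma or limma on scaled counts, and at an unadjusted p under 0.05 only *Ttr* did with limma. The part of these cells in the values of the 9 genes was not tested.

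The genes whose pattern over the 6 libraries was most like that of *Sult2b1* were sought among 14801 genes averaging 1 FPKM or more. By the Pearson correlation of log2 values, the 5 named coding genes nearest to it were *Lnx1* (r = 0.994), *Larp4* (0.988), *Mdga1* (0.987), *Plxna2* (0.980) and *Mex3c* (0.980). With only 6 libraries, 120 of the genes reached a correlation above 0.9 and 167 one below -0.9, and all share the same libraries, so this ranking is a description. None of the 5 lies on chromosome 7. *Lnx1*, a ubiquitin ligase gene, had an FPKM of 1.78 ± 0.0674 and 2.44 ± 0.109, and *Mdga1*, a cell adhesion gene, 4.45 ± 0.345 and 5.99 ± 0.215 (SD, n = 3 each). Their differences were far smaller than that of *Sult2b1*.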

How the data were processed

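The labels place TopHat (version not given) and Cufflinks 2.1.1, with genome build GRCm38.p4, in the submitters' processing notes; neither the annotation release nor strand handling is given in the sources used here. The deposited table gives an FPKM value per gene and library, per the file headers. It also gives a count column, treated as a signal: per the file headers it is a count, but the deposited values are whole multiples of 1 step per library (0.970 to 1.15) in 97.7 to 97.9% of cases, within 0.1. Dividing by that step gave estimated fragments. No count test was run. Symbols and positions came from GENCODE M21 (GRCm38), which matched 46483 of 47062 identifiers; promoters came from RefSeq (GRCm38.p6).

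Mutant and control (3 libraries each) were compared with limma 3.58.1 in R 4.3.3, with a trend, on log2(FPKM + 0.5), for genes averaging 0.5 FPKM or more (two-sided, Benjamini-Hochberg over 16666 genes, threshold 0.05). Only the main fit was tested on simulated data. The genes changed there had higher mean fragment numbers than *Sult2b1*, *Ccdc114* or *Kcnj14*, so genes with so few fragments were not covered. The 9 genes and all lists were chosen with earlier results of these data known. Other genes named were neighbours and list members whose groups do not overlap, nearest genes, abundant list members otherwise, and the 5 most like *Sult2b1*. *Foxj1*, *Ccdc151*, *Emp1*, *Emp2*, *Kdelr1*, *Car11*, *Grin2d*, *Dbp*, *Sphk2*, *Rpl18*, *Slc35c1*, *Nr1h2*, *Tek* and *Col1a2* were added after their values were seen. Alternatives are given in the closing section. One gene of the lists is not reported here by name.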

Additional observations from a re-analysis of the deposited data

How the results depend on the processing

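The directions of *Sult2b1*, *Ccdc114*, *Rasip1* and *Kcnj14* held under median-ratio scaling, under quantile normalization and on scaled counts. Groups of these 4 genes did not overlap under those settings either. With pseudocounts of 0.1 and 1, or with any 1 library left out, the result was the same by construction. Such settings cannot make separate groups overlap or reverse their direction. The size of the differences depended on the scale. *Sult2b1* ranged from 1.51 (pseudocount of 1) to 2.57 (scaled counts), *Ccdc114* from 0.35 to 1.68 and *Kcnj14* from -0.83 to -0.20, against 0.49 to 0.62 for *Rasip1*. With 1 library left out, *Sult2b1* ran from 1.79 to 2.03. Groups that do not overlap numbered 4 of the 9 as reported, 5 on scaled counts, and 4 to 5 when any 1 library was dropped. The shares over all genes were 11.4%, 12% and 17.6 to 24.9% in these settings. *Cyth2* was added without control replicate 2, *Tmem143* without control replicate 3 and *Emp3* without mutant replicate 2. The median of the 9 was 0.04 as reported, 0.17 with a pseudocount of 0.1, 0.37 on scaled counts, and from 0.02 to 0.07 when any 1 library was dropped. For the 40 neighbours, the 7 became 6 on scaled counts or after median-ratio scaling, and dropping any 1 library gave 9 to 17 (17 without control replicate 2, 16 without mutant replicate 3, 11 without mutant replicate 2), beside 17.6 to 24.9% of all genes, and their median ran from -0.02 to 0.04. Over all genes, 10 passed the adjusted threshold as reported, 23 on scaled counts, 5 with the replicate block and 12 to 23 with 1 library left out (19 without control replicate 1, 20 without control replicate 3, 18 without mutant replicate 1 or 2, 23 without mutant replicate 3). Whether the replicate numbers pair the libraries is not settled by these values. Deviations of same-numbered libraries correlated at 0.00246, 0.0372 and 0.0433 for replicates 1, 2 and 3. Control replicate 1 correlated best with mutant replicate 2, while control replicates 2 and 3 correlated best with the mutants of the same number. All of these correlations were small. The block leaves the differences of the 9 genes as they are. Filters on mean FPKM do not act on the 9, which were described without one. Groups of 3 are too small for a check on outlying libraries. Depth limits *Fut1* (up to 2 fragments a library), and *Sult2b1*, *Ccdc114*, *Emp3* and *Kcnj14* rest on at most 42 fragments a library.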
